A study of Mus musculus with 54 samples.

Results

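Mock transfection, that is exposure to the transfection reagent without any siRNA, was examined in M2-like macrophages by setting 3 mock-transfected libraries against 3 libraries of untransfected M2-like macrophages, 6 of the 54 libraries of the series. The members were taken by their sample names from the reprogramming experiment, whose 36 libraries (12 conditions with 3 replicates each) were sequenced as paired reads of 150 nt. All cells were thioglycolate-elicited peritoneal macrophages of C57BL/6 mice. They had been polarized for 24 h with 10 ng/ml IL-4, and according to the methods of the study the mock control received only the transfection reagent, was cultured without IL-4 from then on and was harvested 48 h after transfection. Further pairs of conditions served as comparison, M0 macrophages (without polarizing cytokine) and M1-like macrophages (24 h with LPS at 100 ng/ml plus IFN-γ at 50 ng/ml), each untransfected and mock-transfected, as did M2-like macrophages transfected with a negative siRNA pool. The labels call the untransfected M2 libraries M2 and give them no treatment. The methods place the sequencing of macrophages without transfection at 24 h after polarization and that of the reprogramming study at 48 h after transfection, and do not say which time holds for the untransfected libraries of the latter. The reagent, the additional time in culture and the removal of IL-4 therefore cannot be told apart in this comparison. The methods speak of biological replicates for RNA extraction in the account of quantitative PCR. Neither they nor the labels say whether the replicate libraries used here came from separate mice or cultures. The p-values rest on the spread between replicate libraries, estimated over all 12 conditions and not from these 6 libraries alone. That spread may be technical in part.

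Mock controls are used because transfection itself can change a cell. Cationic lipid reagents enter through endosomes, and macrophages carry receptors in endosomes and in the cytosol that recognise nucleic acids and other foreign material. When such receptors fire, cells release type I interferon, which binds its receptor on the same and on neighbouring cells. The receptor signals through a transcription factor complex that includes STAT2 and IRF9 and binds the interferon-stimulated response element in the promoters of the interferon-stimulated genes. Many of these genes code for antiviral proteins, and their messages are classical readouts of interferon exposure.

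The libraries were of similar depth, with 14710257 to 16365521 counted reads in untransfected and 14959343 to 16499677 in mock-transfected M2-like macrophages, and 16827 to 17446 genes had at least 1 read. Of 10 macrophage markers, none was without reads. Levels are given as reads of the gene per 1000000 counted reads, with the depth of each library scaled by TMM normalization (CPM). The summed level of these 10 genes was 16887 to 19078 CPM without and 15630 to 16685 CPM with mock transfection. Trac and Trbc2 of the T and NK cell markers, Ly6g of the neutrophil markers and Siglech of the dendritic cell markers had no read in any of the 6 libraries, but other members of these lists had reads. The neutrophil markers summed to 82.8 to 97.5 CPM without and 77.6 to 90.8 CPM with mock transfection. Mesothelial cell and fibroblast markers summed to 121 to 408 CPM and 185 to 299 CPM, and eosinophil markers to 27.0 to 33.4 CPM and 27.5 to 30.7 CPM. The T and NK cell and the mast cell and basophil markers summed to at most 1.74 and 12.5 CPM. The 10 dendritic cell markers summed to 72.6 to 87.1 CPM in untransfected and 158 to 287 CPM in mock-transfected libraries, and the only one of them that passed the test was Bst2, which is also on the list of interferon-stimulated genes. The 9 B cell markers summed to 173 to 228 CPM and 149 to 169 CPM. The part of these cell types in the results was not tested.

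Mock transfection was followed by higher levels of 237 genes and lower levels of 14 genes at an adjusted p under 0.05, among 14172 genes tested (edgeR's quasi-likelihood test with Benjamini-Hochberg adjustment, fitted over all 36 libraries). These were 1.67% and 0.0988% of the genes tested, 1.77% together. The changes were one-sided also in size. Of the increases, 116 were at least 1 on the log2 scale and 26 at least 3, against 4 decreases of at least 1. The median log2 fold change was 0.99 over the genes that rose and -0.38 over those that fell, and it was -0.0034 over all genes tested. In 234 of the 237 genes all mock libraries lay above all untransfected libraries, an arrangement found in 6.45% of all genes tested. The 237 genes were called on these same libraries, so this arrangement follows largely from the calls and adds no support.

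**Figure D1:**
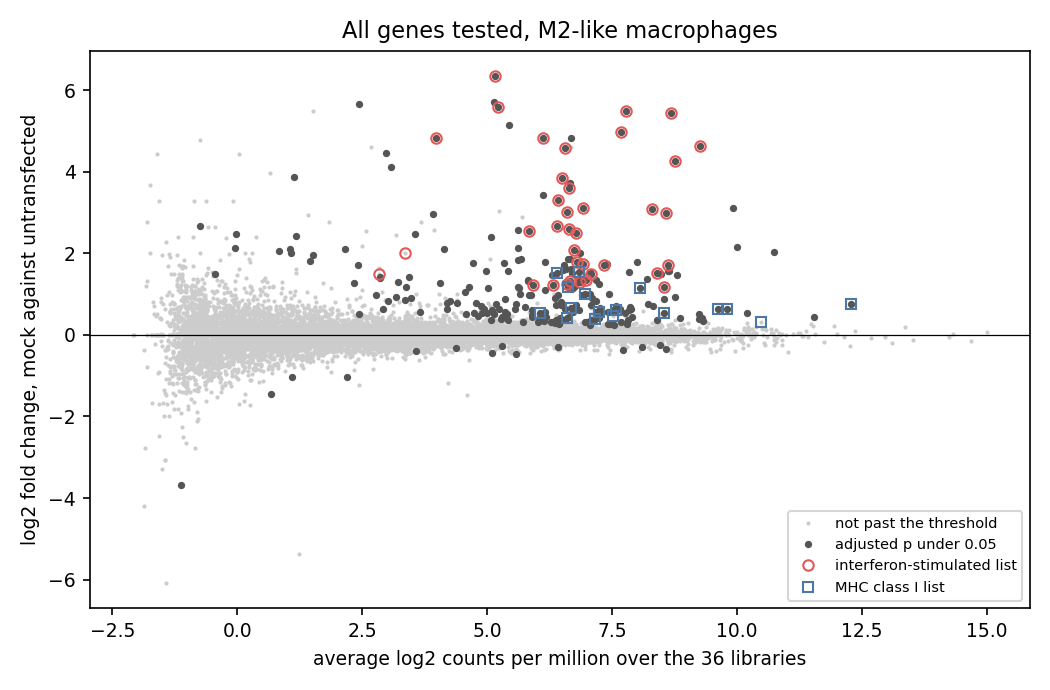
Log2 fold change between mock-transfected and untransfected M2-like macrophages (vertical axis, n = 3 libraries each) against the average log2 CPM over the 36 libraries (horizontal axis), 1 point per gene tested. Dark points passed the adjusted p of 0.05 (237 higher, 14 lower). Red circles mark the 37 interferon-stimulated genes and blue squares the 17 genes of MHC class I presentation, all of which lie above 0.

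The genes that rose most were interferon-stimulated. Of 37 tested members of a list of classical interferon-stimulated genes, 35 rose and none fell, where 1.67% of all genes tested rose and 0.0988% fell. The median log2 fold change of the list was 2.59, with a range from 1.18 to 6.34 over all 37. The remaining members were the chemokine genes Cxcl9 and Cxcl10, whose levels were low. Cxcl10 was at 0.36, 1.16 and 0.60 CPM in untransfected and at 0.96, 2.73 and 2.44 CPM in mock-transfected libraries, a log2 fold change of 1.49 ± 0.84 (SE, edgeR adjusted p = 0.67). Over the whole list, the share of counted reads was 0.0503% ± 0.0034 (SD, n = 3) without and 0.260% ± 0.070 (SD, n = 3) with mock transfection, and the groups did not overlap.

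The IFIT proteins, which bind viral RNA that lacks the marks of host messages, were among the strongest responders. Ifit2 (chromosome 19, 34550694 to 34576419, GRCm38) was at 4.58, 1.68 and 2.65 CPM in the untransfected libraries of replicates 1 to 3 and at 57.6, 167 and 156.6 CPM in the mock-transfected ones. The lowest mock library was thus far above the highest untransfected library, and the fold change was 43.3 (95% confidence interval 24.1 to 77.8, edgeR adjusted p = 8.91e-11). Its neighbour Ifit3 (chromosome 19, 34583531 to 34588731) rose from 2.22, 0.77 and 1.12 CPM to 27.5, 75.4 and 78.8 CPM, 44.6-fold (95% interval 23.2 to 85.7, edgeR adjusted p = 6.86e-10). Ifit3b (chromosome 19, 34607970 to 34613401), a close copy of Ifit3, had the largest log2 fold change of the genes that met the rule for named genes, 6.34 ± 0.86 (SE, edgeR adjusted p = 4.13e-06). Its 0.07, 0.13 and 0.07 CPM in untransfected cells were only 1 or 2 reads per library, and mock libraries had 3.91, 8.76 and 11.2 CPM. How reads shared by Ifit3 and Ifit3b were counted is not stated, so the split between them is uncertain. Ifit1 rose as well, from 1.66 ± 0.61 CPM to 39.4 ± 13.8 CPM (SD, n = 3, 23.9-fold).

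**Figure D2:**
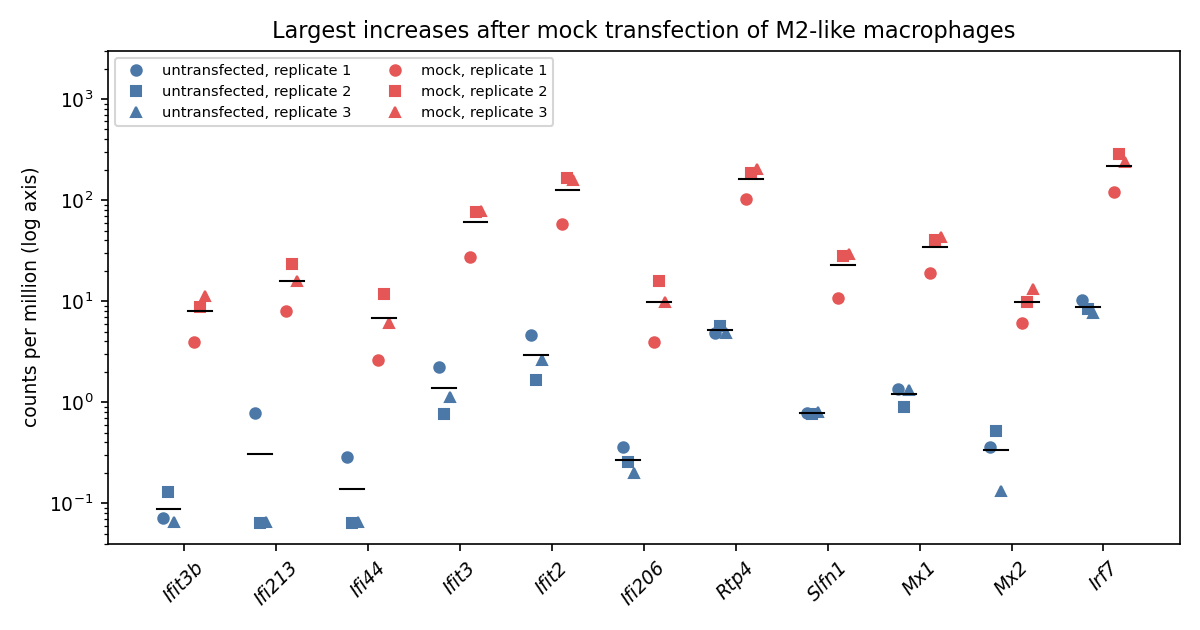
CPM per library (log axis) of the 11 genes with the largest increases that had reads in every group of libraries, for untransfected (blue) and mock-transfected (red) M2-like macrophages. Symbols mark replicates 1 to 3 and the black bars the mean of 3 libraries. For each gene all mock libraries lie above all untransfected ones, as the rule for named genes required, and mock replicate 1 lies lowest of the mock libraries.

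The Ifi200 genes Ifi213 and Ifi206, of the family of interferon-inducible DNA-binding proteins, behaved likewise. Ifi213 went from 0.79, 0.06 and 0.07 CPM to 8.07, 23.6 and 15.9 CPM, a log2 fold change of 5.72 ± 0.55 (SE, edgeR adjusted p = 4.59e-09). Ifi206 went from 0.36, 0.26 and 0.20 CPM to 3.91, 15.8 and 9.90 CPM, a log2 fold change of 5.14 ± 0.71 (SE, edgeR adjusted p = 5.34e-06). In both genes mock replicate 2 was highest and mock replicate 1 lowest. These genes are similar in sequence to others of their family, and the split of reads between them is uncertain.

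The promoters of Ifit3b, Ifit3, Ifi213 and Ifi206 are shown because these pairs of related genes rank among the largest increases and hold letters of the interferon-stimulated response element. Each window runs from 250 bases before to 50 bases after the start of the RefSeq gene (GRCm38.p6), written 5′ to 3′ on the strand of the gene, with matches to GAAANNGAA, a core of that element, on either strand in capitals. Ifit3b (chr19:34607707-34608006, plus strand) and Ifit3 (chr19:34583279-34583578, plus strand) each hold 3 matches, read on the opposite strand, whose leftmost bases lie 187, 153 and 134 bases before the start in Ifit3b and 155, 121 and 102 bases before it in Ifit3. Ifi213 (chr1:173599223-173599522, minus strand) and Ifi206 (chr1:173491269-173491568, minus strand) hold 1 match each, beginning 73 and 40 bases before the start.
Ifit3b: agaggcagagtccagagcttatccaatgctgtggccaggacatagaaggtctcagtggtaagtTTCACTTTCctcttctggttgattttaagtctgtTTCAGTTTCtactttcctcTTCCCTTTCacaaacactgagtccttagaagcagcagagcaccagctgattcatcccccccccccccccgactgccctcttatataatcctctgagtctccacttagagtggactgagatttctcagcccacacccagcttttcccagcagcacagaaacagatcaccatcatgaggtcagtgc
Ifit3: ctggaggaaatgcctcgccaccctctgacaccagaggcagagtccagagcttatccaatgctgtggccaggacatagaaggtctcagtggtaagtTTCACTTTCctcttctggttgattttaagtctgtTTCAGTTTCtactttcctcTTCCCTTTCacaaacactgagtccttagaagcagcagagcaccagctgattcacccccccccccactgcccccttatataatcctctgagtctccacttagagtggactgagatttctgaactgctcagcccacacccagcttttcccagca
Ifi213: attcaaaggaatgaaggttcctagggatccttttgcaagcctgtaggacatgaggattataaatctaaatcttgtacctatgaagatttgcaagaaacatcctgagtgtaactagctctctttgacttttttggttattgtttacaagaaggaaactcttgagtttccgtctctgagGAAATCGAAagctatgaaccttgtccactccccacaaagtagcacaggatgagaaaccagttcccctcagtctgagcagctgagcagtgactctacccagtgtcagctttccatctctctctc
Ifi206: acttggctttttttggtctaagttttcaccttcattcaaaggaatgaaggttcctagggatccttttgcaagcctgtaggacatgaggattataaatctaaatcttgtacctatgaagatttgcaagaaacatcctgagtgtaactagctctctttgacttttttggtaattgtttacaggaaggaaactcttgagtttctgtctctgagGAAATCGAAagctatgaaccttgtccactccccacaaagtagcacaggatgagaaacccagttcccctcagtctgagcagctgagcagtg

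Beyond these windows, a match to GAAANNGAA on either strand was present in the promoters of 68 of the 179 genes that rose and have an entry in the RefSeq promoter table (38.0%), and in 19 of the 28 interferon-stimulated genes with an entry (67.9%). The share over all 10137 tested genes with an entry was 8.93%. TTCNNNGAA, the palindromic gamma-activated site, whose matches may share bases with the former, was found in 14.0% of the genes that rose and in 8.25% of all. Of the 14 genes that fell, 11 had an entry and none held a match to either. Of the 12 genes with the largest increases, 8 had an entry. Both motifs were chosen after the values were seen. The window of Ifi44 held 1 match to GAAANNGAA and those of Ifit2, Slfn1 and Irf7 held none, which says only that these letters are not in these windows.

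Messages of families of antiviral GTPases and enzymes rose as well. Mx1 and Mx2, of a family of dynamin-like GTPases, rose 28.4-fold (95% interval 15.9 to 50.9) and 28.3-fold (95% interval 16.1 to 49.8). The annotation lists Mx2 as a polymorphic pseudogene, and whether either message gives a working protein in these mice was not tested. Mx1 was at 1.36, 0.90 and 1.32 CPM in untransfected and at 19.2, 40.0 and 43.2 CPM in mock libraries. The oligoadenylate synthetases activate RNase L when they meet double-stranded RNA. Of the 8 tested genes of this family, picked by symbol after the values were seen, 7 rose, as did 1.67% of all genes tested. Oas3 went from 12.8, 10.7 and 8.80 CPM to 129.6, 234.0 and 256.2 CPM, which is 19.2-fold (95% interval 13.6 to 27.2, edgeR adjusted p = 3.67e-13). Oas2 rose 14.4-fold (95% interval 10.3 to 20.2). Rsad2, which codes for the antiviral enzyme viperin, rose from 16.0 ± 4.3 to 127.8 ± 33.0 CPM (SD, n = 3), and Cmpk2, its genomic neighbour and a nucleotide kinase, rose 8.69-fold. Rtp4 (chromosome 16, 23520291 to 23614222), a chaperone-like protein induced by interferon, shared the smallest adjusted p of all genes with Oas3. It was at 4.86, 5.74 and 4.89 CPM without and at 102.9, 183.7 and 201.9 CPM with mock transfection, 31.4-fold higher (95% interval 20.8 to 47.5, edgeR adjusted p = 3.67e-13). Slfn1, a Schlafen gene of haematopoietic cells, went from 0.79, 0.77 and 0.79 CPM to 10.8, 28.2 and 29.1 CPM (28.5-fold).

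The ubiquitin-like modifier Isg15 and Usp18, the protease that removes it and that also dampens the interferon receptor, rose 9.88-fold (95% interval 5.59 to 17.5) and 12.1-fold (95% interval 8.72 to 16.7). Bst2 (tetherin), which holds budding virions at the membrane, rose 3.28-fold. Ifi44 rose from 0.29, 0.06 and 0.07 CPM to 2.62, 11.8 and 6.06 CPM, a log2 fold change of 5.57 ± 0.87 (SE, edgeR adjusted p = 5.14e-05).

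Among the families picked by symbol after the values were seen, both tested Mx genes, 4 of 6 Ifit genes, 8 of 8 Schlafen genes, 11 of 12 Ifi200 genes, 8 of 10 immunity-related GTPases, 5 of 8 guanylate-binding proteins, 5 of 12 Parp genes and 10 of 43 Trim genes rose, and none of their members fell. By comparison, 1.67% of all genes tested rose and 0.0988% fell, so that the lack of decreases says little. The median log2 fold change was 1.47 for the Schlafen, 1.74 for the Ifi200 and 2.29 for the immunity-related GTPase genes, and 0.032 for the Trim genes. In all, 103 of the 237 genes belonged to a fixed list or to one of these families. Il12rb1, a subunit of the IL-12 receptor, was the third largest increase by fitted fold change. It had no read in untransfected libraries and 17 reads in mock libraries, which is 5.72-fold with 3 reads over the group as the floor. The lower 95% bound of the ratio from counting error was 4.16. Il12rb1 did not pass without any 1 untransfected library or without mock replicate 3 (edgeR adjusted p up to 0.28).

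Of 8 tested interferon regulatory factor genes, picked by symbol after the values were seen, 3 rose and none fell. Their median log2 fold change was 0.07. Among all genes tested 1.67% rose and 0.0988% fell, so that the lack of decreases among so few genes says little. Irf7 (chromosome 7, 141262706 to 141266481), which drives the interferon alpha genes and is itself interferon-inducible, was at 10.3, 8.31 and 7.67 CPM in untransfected and at 121, 285 and 240.7 CPM in mock-transfected libraries. The groups were far apart, with a 24.6-fold difference (95% interval 14.6 to 41.7, edgeR adjusted p = 2.88e-10). Stat2 and Irf9, which code for members of the receptor's transcription factor complex, rose by 3.30-fold (95% interval 2.63 to 4.15) and 2.39-fold (95% interval 2.12 to 2.70). Irf1, activated by either type of interferon, rose 1.52-fold. The genes of the type I and type II receptors did not pass the test. Ifnar1, a chain of the type I receptor, was at 117.8, 127.5 and 116.1 CPM without and 108.2, 119.1 and 113.9 CPM with mock transfection.

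The interferon messages themselves were hardly present at this depth. The 17 type I, II and III interferon genes had 3 reads in the untransfected and 6 reads in the mock-transfected libraries together, of 47307607 and 46895831 counted reads. Ifnb1, the first type I interferon of most cells, had no read in any of the 6 libraries. This allows up to 0.0640 reads per 1000000 counted reads, without TMM scaling, in the mock-transfected group (counting error only).

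Sensors of nucleic acids rose in part. Among all genes tested 1.67% rose and 0.0988% fell, so that a lack of decreases in a short list says little. Of 24 tested genes of nucleic acid sensing, 4 rose and none fell, with a median log2 fold change of 0.12. The RNA helicases of the RIG-I family were among them, Dhx58 (4.04-fold, from 17.1, 18.6 and 19.8 CPM to 49.5, 79.7 and 95.8 CPM), Ddx58 (RIG-I itself, 3.33-fold, from 25.2, 24.4 and 23.5 CPM to 61.0, 97.3 and 85.3 CPM) and Ifih1 (MDA5, 2.50-fold). Dhx58 overlaps an antisense gene that also rose, and whether reads were counted by strand is not stated. The DNA sensor Cgas rose 1.49-fold (95% interval 1.27 to 1.74), but did not pass in the compared groups alone (edgeR adjusted p = 0.12). The adaptor Mavs stayed at a log2 fold change of 0.01 ± 0.09 (SE) and did not pass, and the endosomal receptor Tlr3 did not pass either, at 6.65, 10.2 and 7.74 CPM against 11.6, 15.7 and 10.9 CPM (edgeR adjusted p = 0.20).

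Presentation on MHC class I showed smaller but uniform increases. Of 17 tested genes, 15 rose and none fell, with a median log2 fold change of 0.63. In all 17 the mock libraries lay above the untransfected ones, an arrangement found in 6.45% of all genes tested. For the 15 genes that passed, this arrangement follows largely from the test and adds no support. Nlrc5, the transactivator of MHC class I genes, rose 2.24-fold (95% interval 1.93 to 2.60), from 20.8, 24.2 and 21.6 CPM to 42.4, 53.3 and 54.0 CPM. Tap1, a chain of the peptide transporter, rose 2.20-fold (95% interval 1.84 to 2.64). B2m, the light chain, rose 1.70-fold (95% interval 1.45 to 1.99) and the heavy chain gene H2-K1 1.55-fold (95% interval 1.33 to 1.80). The non-classical genes H2-Q6 and H2-Q7 had the largest fold changes of the list, 2.90 and 2.86, at low levels and with uncertain split of reads between these similar genes. Neither passed in the compared groups alone (edgeR adjusted p = 0.10 and 0.091) or without mock replicate 2 (0.15 and 0.051), nor H2-Q6 without untransfected replicate 3 (0.12) or H2-Q7 without untransfected replicate 2 (0.057). H2-D1 and Psmb10 did not pass, with log2 fold changes of 0.30 ± 0.11 and 0.46 ± 0.15 (SE). None of 10 tested genes of MHC class II presentation passed (median log2 fold change -0.06). Over all genes tested 1.77% passed, so that a count of 0 among so few genes says little.

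**Figure D3:**
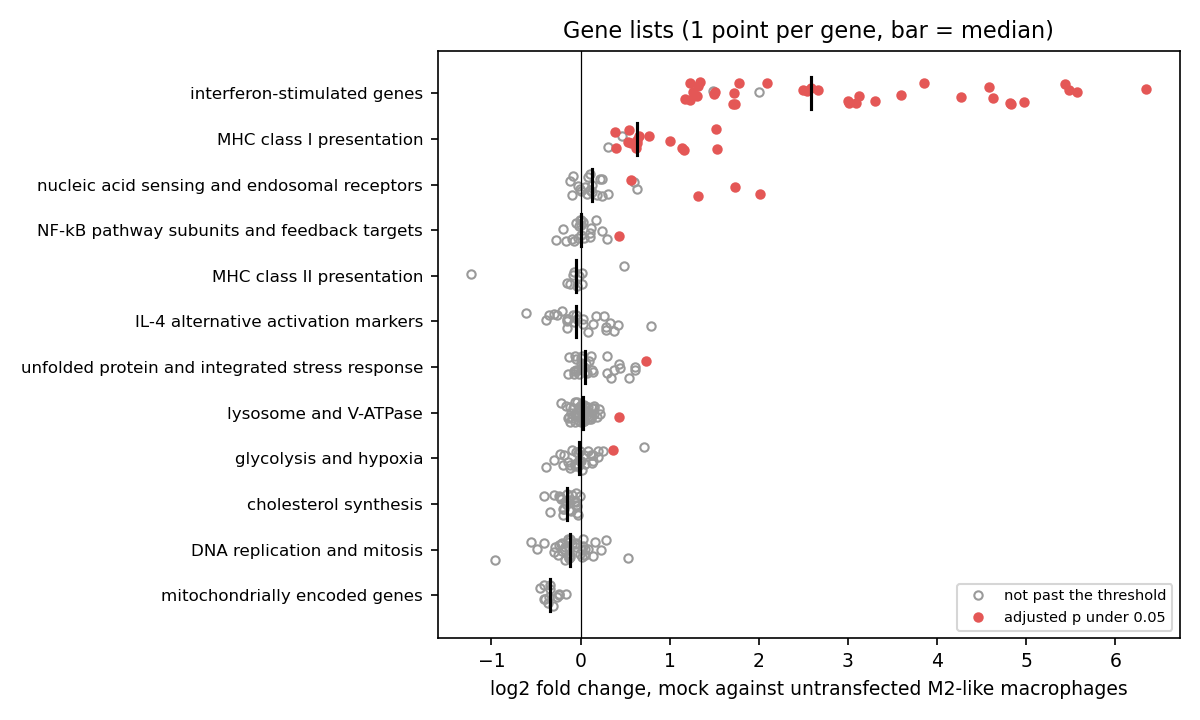
Log2 fold change between mock-transfected and untransfected M2-like macrophages (horizontal axis) for the tested genes of 12 lists, 1 point per gene, with filled points for an adjusted p under 0.05 and a bar at the median of each list. The interferon-stimulated and MHC class I lists lie to the right of 0 (35 of 37 and 15 of 17 genes filled), and the other lists hold at most 4 filled points.

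Among classical markers by which M2-like and M1-like macrophages are told apart, 1 passed the test. None of 26 tested IL-4 markers passed the test (median log2 fold change -0.05), where 1.77% of all genes tested did. A list of this size would hold few calls or none at that share. Arg1, which codes for arginase and competes for the substrate of nitric oxide synthesis, was at 17.5, 64.1 and 9.59 CPM in untransfected and at 21.9, 44.0 and 8.92 CPM in mock-transfected libraries. Retnla, a secreted protein induced by IL-4, was at 256.5, 440.7 and 222.3 CPM and at 248.4, 480.0 and 140.4 CPM. Arg1 and Retnla were thus highest in replicate 2 and lowest in replicate 3 in both groups, and the groups overlapped. Chil3, a chitinase-like protein, had a log2 fold change of -0.16 ± 0.16 and the mannose receptor gene Mrc1 one of -0.04 ± 0.14 (SE), neither past the threshold. The 95% interval of the fold change was 0.723 to 1.11 for Chil3 and 0.804 to 1.17 for Mrc1, while for Arg1 it ran from 0.314 to 2.12, so that a change of Arg1 within these bounds was not detectable with this spread.

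Of 26 tested M1-type inflammatory genes only the costimulatory Cd86 passed, at 4.44, 3.87 and 3.44 CPM against 5.95, 8.48 and 4.74 CPM (1.63-fold, 95% interval 1.30 to 2.06, edgeR adjusted p = 0.015). Cd86 did not pass without untransfected replicate 2, without untransfected replicate 3 or without mock replicate 2 (edgeR adjusted p = 0.067, 0.15 and 0.30), nor in the compared groups alone (0.34). The median log2 fold change of this list was 0.40, with genes that lacked reads in 1 group set to the floor of 3 reads and 3 genes with at most 3 reads in both groups left out (0.37 as fitted). Nos2, the inducible nitric oxide synthase, had no read in untransfected and 8 reads in mock-transfected libraries and did not pass (edgeR adjusted p = 0.47). Tnf was at 7.08 ± 1.05 CPM against 9.50 ± 0.58 CPM (SD, n = 3), with a log2 fold change of 0.43 ± 0.23 (SE, edgeR adjusted p = 0.62). Il1b had 2 and 12 reads and Il6 had 2 and 2 reads in the untransfected and mock-transfected groups. Of 21 genes of the NF-κB pathway and its feedback targets only the kinase gene Src passed (1.35-fold), which it did not without any 1 untransfected library or without mock replicate 3 (edgeR adjusted p up to 0.12), and the median log2 fold change was 0.0064. The calls made up 3.85% of the M1-type and 4.76% of the NF-κB list, where 1.67% of all genes tested rose. In lists of this size, 1 call is near that share.

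The 4 genes against which the study designed siRNA pools had fold changes near 1 with narrow intervals. The 95% interval of the fold change was 0.838 to 1.11 for E2f1, 0.807 to 1.20 for Myc, 0.926 to 1.15 for Pparg and 0.952 to 1.22 for Stat6. None passed the test, and the groups overlapped for all but Stat6, at 255.3, 270.1 and 274.6 CPM against 282.3, 277.7 and 302.7 CPM.

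Single genes of other lists rose, 2.17% to 8.33% of each list, where 1.67% of all genes tested rose. With 1 or 2 such calls in a list, they are given as genes and not as a result about the list. Ddit3, the stress-induced transcription factor CHOP, rose 1.67-fold (95% interval 1.37 to 2.02) as the only gene of 32 in the list of the unfolded protein and integrated stress response. The lysosomal cholesterol carrier gene Npc2 rose 1.35-fold (95% interval 1.19 to 1.53, 1 of 46 lysosomal genes), Hk2, the hexokinase of glycolysis, 1.29-fold (1 of 32), the integrin gene Itgb7 1.84-fold (1 of 18), and Keap1, the inhibitor of the antioxidant regulator NRF2, 1.30-fold (1 of 24). Among scavenger, complement and phagocytic receptors, Fcgr1, the high-affinity receptor for IgG, rose 2.38-fold (95% interval 1.77 to 3.19) and Axl, a receptor for apoptotic cells, 1.77-fold (95% interval 1.37 to 2.27), as 2 of 24. Of these single genes, Npc2 did not pass without untransfected replicate 2 (edgeR adjusted p = 0.060), Keap1 did not without any 1 untransfected library or without mock replicate 3 (up to 0.28), and Axl did not without untransfected replicate 1 or 3 or without mock replicate 2 (up to 0.17). Fcgr1 was also the only one of the 10 macrophage markers that passed.

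No gene of cholesterol synthesis (25 tested), fatty acid synthesis (16), cholesterol efflux (12), lipid uptake and oxidation (25), heat shock (17), DNA replication and mitosis (40), p53 targets (18), immediate early genes (27), matrix remodelling (29) or tissue macrophage identity (20) passed. With 1.77% of all genes tested past the threshold, lists of these sizes would hold few calls or none. All 25 estimates for cholesterol synthesis lay below 0, from -0.41 to -0.01 on the log2 scale with a median of -0.15. None of the 13 mitochondrially encoded genes passed, but all estimates were below 0 (median -0.34), and the share of reads on these genes was 1.71% to 1.85% in untransfected and 1.32% to 1.57% in mock-transfected libraries. Its part in the other results was not tested.

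Of the 14 decreases, 4 were at least 1 on the log2 scale. F13a1, the coagulation factor XIII subunit made by macrophages, fell from 5.29, 7.93 and 10.6 CPM to 3.33, 4.56 and 3.83 CPM, a log2 fold change of -1.03 ± 0.26 (SE, edgeR adjusted p = 0.022). Tfrc, the transferrin receptor through which cells take up iron, fell from 469.2, 468.1 and 424.2 CPM to 367.1, 348.8 and 341.6 CPM, to 0.777 of its level (95% interval 0.693 to 0.871, edgeR adjusted p = 0.011). The kinase gene Nek6 (-0.46), the anion transporter gene Slc26a11 (-0.44), the mitochondrial pyrophosphatase gene Ppa2 (-0.39), the motor protein gene Myo1e (-0.34), the acetyl-CoA transporter gene Slc33a1 (-0.31), the thromboxane synthase gene Tbxas1 (-0.30), the ubiquitin ligase gene Rnf128 (-0.29), the lysosomal sulfatase gene Sgsh (-0.27) and the coagulation factor gene F7 (-0.26) fell by less than 0.5 on the log2 scale. In each of them the mock libraries were all below the untransfected ones, which the rule for named genes required and which therefore adds no support. This arrangement held for 5.90% of all genes tested. The other 3 decreases, Slc36a2 (-1.45), Cfap45 (-1.04) and the clone 1700084C06Rik (-3.69), lay outside the rule for named genes and are given after their values were seen. With the replicate number as a block, 35 genes in place of 14 were lower. None of the 11 decreases that met the rule passed under all 14 alternatives, and between 2 and 8 alternatives ended the call. Each lost its call without at least 1 of the 6 libraries. Tfrc reached an adjusted p of 0.076 without mock replicate 3 and F13a1 one of 0.31 without untransfected replicate 3 (edgeR).

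The genes that had responded to IL-4 itself in the separate polarization experiment of the series (18 libraries, M0, M1-like and M2-like macrophages of 3 mice each) were followed as well. Of 229 genes (1.68% of those tested in both experiments) that were at least 1 on the log2 scale higher after 24 h of IL-4, 2 rose after mock transfection (Ifi206 and Gm4951) and 2 fell (Tfrc and Slc36a2), and the median log2 fold change was -0.0029. Of 249 genes lower after IL-4 (1.82%), 8 rose and 2 fell (median 0.09). The 8 were Oas3, Oas2, AW011738, Siglec1, Adam33, Cdkn1c, Kdr and Tmem178, and the 2 were Sgsh and Slc26a11. As shares, 0.873% of the higher list rose and 0.873% fell, and 3.21% of the lower list rose and 0.803% fell. Over all genes tested, 1.67% rose and 0.0988% fell, while 1.68% and 1.82% give only the sizes of the lists. The LPS and IFN-γ lists were cut like the IL-4 lists, at an adjusted p under 0.05 and a log2 change of at least 1. Without the cut on size, 5703 of the 16110 genes tested in the polarization experiment were higher after LPS and IFN-γ and 6048 lower. Of the 236 genes that rose after mock transfection and could be looked up, 206 (87.3%) were on the higher list. This list held 13.6% of all genes tested in both experiments, and the 206 genes were 11.1% of it. Another 8 (3.39%) were on the lower list of LPS and IFN-γ, as were 16.9% of all. Of the 14 genes that fell, 5 (F13a1, Slc36a2, Slc26a11, Rnf128 and Sgsh) were on the lower and 2 (F7 and 1700084C06Rik) on the higher list.

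Whether the mock effect depended on the polarization was tested by the difference of the mock effects (an interaction term). The effect in M2-like macrophages was more positive than in M0 macrophages for 2.41% and more negative for 3.25% of all genes tested. In M0 macrophages mock transfection was followed by 1663 higher genes (11.7% of genes tested) and 1228 lower genes (8.66%). Of the 237 genes higher in M2-like macrophages, 204 (86.1%) were also higher in M0 macrophages, and these were 12.3% of the genes higher there. The interferon-stimulated list had 36 of 37 genes higher in M0 macrophages, with a median log2 fold change of 2.50 against 2.59 in M2-like macrophages. For 3 of the 37 genes the increase was larger in M2-like than in M0 macrophages, and for none smaller. These were Rtp4, by 2.10 on the log2 scale (edgeR adjusted p = 0.00088), Oas3, by 1.88 (edgeR adjusted p = 0.00037), and Oas2, by 1.36 (edgeR adjusted p = 0.010). After mock transfection Oas3 was at 206.6 ± 67.6 CPM in M2-like and 319 ± 126 CPM in M0 macrophages, and before it at 10.8 ± 2.0 CPM and 61.4 ± 18.8 CPM (SD, n = 3).

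In M1-like macrophages no gene passed the test after mock transfection, with edgeR or with DESeq2. An unadjusted p under 0.05 (edgeR) was found for 438 of the 14172 genes tested. This is a smaller share than that threshold passes on average without any effect. The interferon-stimulated list had a median log2 fold change of 0.14 in M1-like macrophages. For 34 of its 37 genes the mock effect was larger in M2-like than in M1-like macrophages, as it was for 13 of 17 MHC class I genes, whereas 1.09% of all genes tested differed in this direction and 0.0353% in the other. Ifit2 was at 303 ± 33 CPM in untransfected and 347 ± 16 CPM in mock-transfected M1-like macrophages (SD, n = 3), above the 127 ± 60 CPM of mock-transfected M2-like macrophages. The list took 0.618% to 0.875% of reads in untransfected M1-like macrophages, above the 0.180% to 0.305% of mock-transfected M2-like macrophages.

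**Figure D4:**
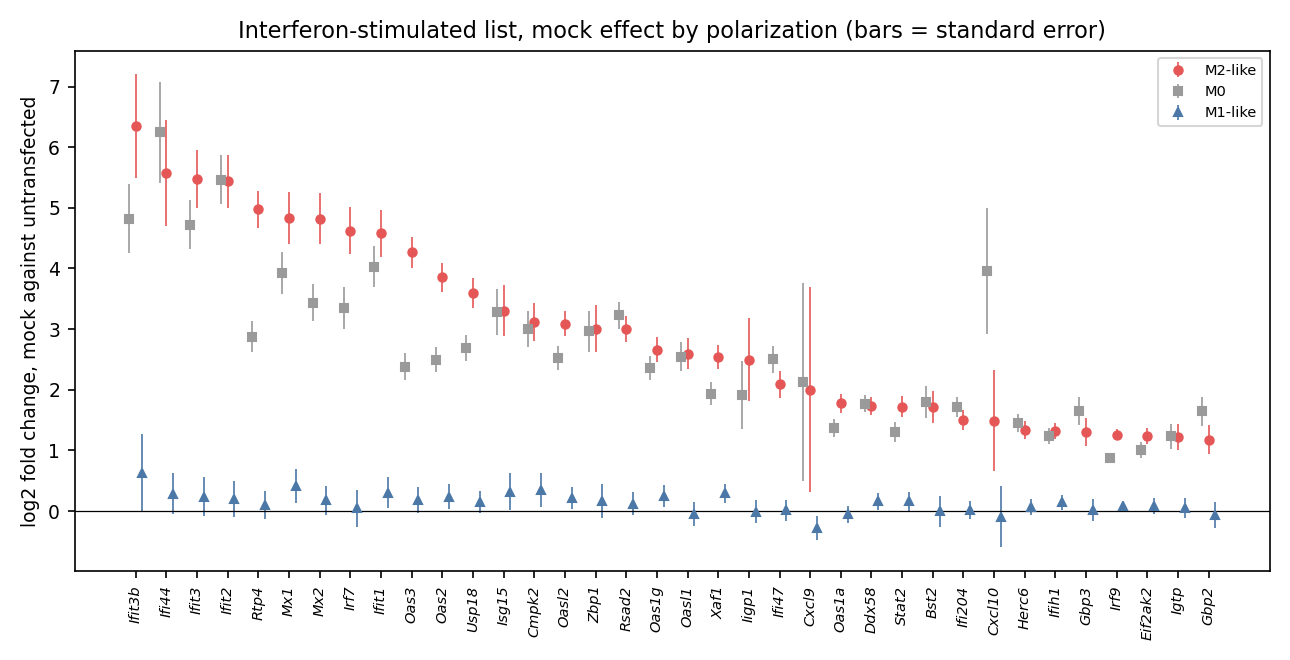
Log2 fold change after mock transfection (vertical axis, bars are the standard error) of 36 of the 37 interferon-stimulated genes in M2-like (red), M0 (grey) and M1-like (blue) macrophages, ordered by the value in M2-like macrophages. The M2-like and M0 estimates lie above 0 for every gene shown and the M1-like estimates lie between -0.28 and 0.63.

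Macrophages that had received the negative siRNA pool with the same reagent were at higher levels of the interferon-stimulated genes. The list took 0.685% to 0.768% of their reads, and none of these libraries overlapped with the mock-transfected ones. Irf7 was at 834, 850 and 882 CPM with the negative siRNA pool and at 121, 285 and 240.7 CPM after mock transfection. Against the mock-transfected libraries, 35 of the 37 genes were higher with the negative siRNA pool (edgeR, median log2 fold change 1.22), as were 6.67% of all genes tested. The comparisons of mock-transfected and of negative-pool libraries with untransfected cells share the untransfected libraries, and the list had medians of 2.59 and 4.23 in them.

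**Figure D5:**
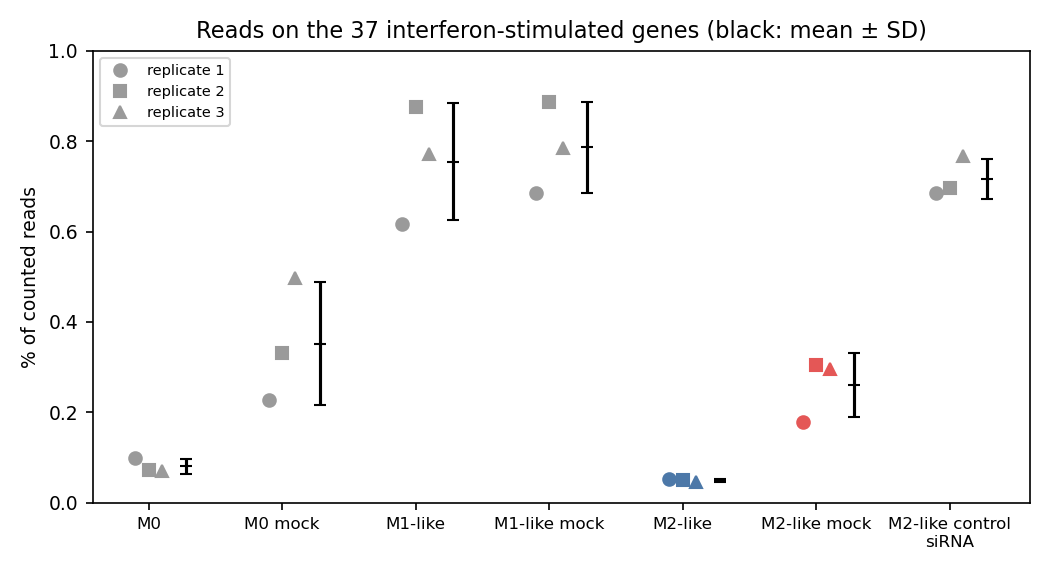
Share of counted reads on the 37 interferon-stimulated genes (vertical axis, %) in each library of 7 conditions, with the mean and SD of 3 libraries beside them in black. Mock-transfected M2-like libraries (red, 0.180% to 0.305%) lie above untransfected ones (blue, 0.0467% to 0.0533%) and below the libraries with the negative siRNA pool.

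The mock libraries differed among themselves. Mock replicate 1 was lowest of the 3 for 176 of the 237 genes that rose, and the median log2 ratio to the mean of the untransfected libraries over these genes was 0.76 in mock replicate 1, 1.02 in mock replicate 2 and 0.96 in mock replicate 3. The list of interferon-stimulated genes took 0.180% of the reads of mock replicate 1 and 0.305% and 0.296% of those of the others. Without mock replicate 1, 240 genes rose and 13 fell. The number of genes lower was less stable, with 8 without untransfected replicate 3 and 7 without mock replicate 3.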

How the data were processed

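Total RNA of peritoneal macrophages was sequenced, and the authors deposited read counts per gene and library, made per the labels with Trimmomatic, TopHat2 and featureCounts on mm10. Versions, annotation, strand setting and treatment of multi-mapping reads were not given in the sources used here. Symbols and coordinates came from GENCODE M21 (GRCm38), which named 37693 of 39179 genes.

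Counts were fitted with edgeR 4.0.16 (R 4.3.3) in 1 quasi-likelihood model over 36 libraries and 12 conditions, with TMM normalization and filterByExpr (minimum count 10). The threshold was an adjusted p of 0.05. CPM used the counted reads of each library on the genes tested, scaled by its TMM factor. Differences of mock effects were contrasts of the same model. DESeq2 1.42.0, other scalings, filters, a replicate block, the compared groups alone and the omission of each library were alternatives. Scripts were tested on simulated data. Replicates of M2 and M2_mock with the same number deviated together from their group means over 9978 genes (Pearson's r 0.305, 0.312 and 0.439), and the pairing comes only from these data and the numbers. No replicate pair agreed within sampling noise.

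The members and gene lists were chosen with earlier results of these data known. Named genes were the 12 largest increases and decreases (adjusted p under 0.05, average log2 CPM of at least 2, no overlap), up to 4 per list, the siRNA targets, 8 polarization markers and 3 interaction genes per direction. Further genes were named, and the promoter motifs chosen, after values were seen; a longer form of the response element and an NF-κB site were searched first and are not given. Intervals on reads cover counting error only. The values of 1 gene are not reported here.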

Additional observations from a re-analysis of the deposited data

Results flagged for a closer look

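The mock effect differed between polarizations in a test of the difference itself (edgeR, interaction term). Against M0 macrophages, the log2 fold change after mock transfection was more positive in M2-like macrophages for 341 genes and more negative for 461 (2.41% and 3.25% of genes tested). Against M1-like macrophages, it was more positive for 155 genes and more negative for 5 (1.09% and 0.0353%).

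The largest differences from M0 macrophages were in genes that changed there and did not pass the test in M2-like macrophages. Marco, a scavenger receptor gene, had a mock effect 4.56 ± 0.78 (SE) higher on the log2 scale in M2-like macrophages. It was at 58.1 ± 17.3 CPM in untransfected and 3.09 ± 2.31 CPM in mock-transfected M0 macrophages, and at 6.99 ± 2.43 and 8.80 ± 2.45 CPM in M2-like macrophages (SD, n = 3). The difference was 3.35 ± 0.91 for Prg4, which codes for lubricin, and 3.32 ± 0.79 for Cox6a2, a subunit of cytochrome c oxidase (SE). In the other direction it was -2.30 ± 0.47 for the orphan receptor gene Gpr162, -2.27 ± 0.19 for Mgll, which codes for monoacylglycerol lipase, and -2.24 ± 0.32 for the desaturase gene Scd2 (SE). Scd2 was at 44.1 ± 2.5 and 200.7 ± 68.9 CPM in M0 and at 381.8 ± 43.5 and 366.2 ± 50.7 CPM in M2-like macrophages without and with mock transfection (SD, n = 3).

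The largest differences from M1-like macrophages were 5.71 ± 1.31 for Ifit3b, 5.43 ± 0.67 for Ifi213 and 5.29 for Ifi44 (edgeR adjusted p = 0.0017), and in the other direction -0.52 ± 0.12 for Cd48, a ligand of the receptor 2B4, -0.47 ± 0.12 for Tfrc and -0.41 ± 0.10 for Rnf128 (log2 scale, SE). Cd48 itself did not pass the test in M2-like macrophages (log2 fold change -0.30, edgeR adjusted p = 0.070).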

How the results depend on the processing

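The count of higher genes kept within 1.5 times of 237 under every alternative but 1, and ranged from 177 to 240 when 1 library was left out (116 with a log2 fold change of at least 1, 320 without a filter). The 14 lower genes moved to 30 with DESeq2, 29 with upper-quartile scaling, 67 without a filter, 35 with the replicate block, 9 in the compared groups alone and 4 with a log2 fold change of at least 1, and ranged from 7 to 19 when 1 library was left out. The cause was not tested. The compared groups alone with the replicate block, chosen after seeing the data, gave 281 higher and 64 lower genes, and 13 and 16 in the IL-4 lists. Genes whose mock effect differed from M0 numbered 594 to 749 without 1 library and 495 in the compared groups alone, and from M1-like 111 to 172 and, without a filter, 306. Genes of the IL-4 lists that passed numbered 4 in the higher list (9 with DESeq2, 16 without a filter, 1 with at least 10 reads in every library, 2 with a log2 fold change of at least 2 after IL-4, 2 to 4 without 1 library) and 10 in the lower list (17 without a filter, 0 with a log2 fold change of at least 2 after IL-4, 7 to 11 without 1 library). The replicate block moved no other of these 6 counts by over 1.5 times.

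Of 30 named genes that rose, 21 passed under every alternative, and of 11 named genes that fell none did. None of these 41 changed direction. Estimates of genes that did not pass changed sign when 1 library was left out, over a range of -0.085 to 0.021 for Myc, -0.011 to 0.086 for Pparg, -0.98 to 0.88 for Arg1, -0.66 to 0.27 for Retnla, -0.14 to 0.064 for Mrc1 and -2.77 to 0.56 for Il6 (-0.0046 with upper-quartile scaling). Depth limits genes with a few reads, such as Il12rb1, Nos2 and the interferons.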
